A study of Mus musculus with 12 samples.

Results

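The genes described here encode the cullin scaffolds of the cullin-RING ubiquitin ligases and their F-box and Klhl substrate receptors in mouse muscle stem cells (MuSCs) and primary myoblasts. Members were taken by gene symbol, as every gene named Cul, Fbxl, Fbxw, Fbxo or Klhl with a digit after it. They made up 102 of the 16503 genes listed for MuSCs and myoblasts, namely 8 cullins, 18 Fbxl, 10 Fbxw, 34 Fbxo and 32 Klhl genes. Of these, 98 had at least 10 normalized counts in at least 3 libraries and were tested. The list of WT and Nedd4L-cKO MuSCs held 95 of these 102 genes among 16169, and 93 were tested. Fbxo24, Fbxw10, Klhl14 and Klhl34 were listed but not tested in the culture comparison, and Fbxo47 and Klhl32 were listed but not tested between the genotypes.

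A cullin-RING ligase is built on a cullin, whose one end holds a RING protein (Rbx1 or Rnf7) and the ubiquitin-loaded E2 enzyme and whose other end holds a receptor that picks the substrate. Cul1 takes F-box proteins through the adaptor Skp1, and Cul3 takes BTB-kelch proteins such as the Klhl family directly, so that the receptor present in a cell sets which proteins are marked. The ligase is switched on by attachment of Nedd8 to the cullin, switched off by the COP9 signalosome, and reloaded with receptors by Cand1. In muscle, F-box proteins are best known from atrophy (Fbxo32, also called atrogin-1, Fbxo30, also called MUSA1, and Fbxo21, also called SMART), and Klhl proteins from the sarcomere, where mutations of KLHL40 and KLHL41 cause nemaline myopathy.

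MuSCs were sorted from hindlimb muscle as ITGA7+/Hoechst+/CD31-/CD45-/CD11b-/SCA1- cells, and every library was made from 1000 cells with a SMART-seq protocol that amplifies full-length cDNA. In the culture comparison there were 3 libraries of freshly isolated WT MuSCs and 3 of WT primary myoblasts, which are sorted MuSCs after 3 days in growth medium with serum and bFGF. The libraries are numbered 04, 05 and 06 in both groups, and their sample descriptions carry a second set of tags shared in the same order. Whether a shared number or tag marks the same animal is not stated in the sources used here. The age of these mice is not given in the sources used here. In the genotype comparison, MuSCs were taken from male mice, 3 of each genotype (WT or Nedd4L-cKO), at 5 to 6 weeks of age. The Nedd4L-cKO mice are Nedd4L fl/fl Pax7 cre/+ on a C57BL/6 background, in which Cre is made from the Pax7 locus and removes exon 15 of Nedd4l, a part of the catalytic domain, while the gene is still transcribed. The WT libraries of the comparisons are different ones, and the tables were normalized separately by the authors.

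Levels are given in RPM, that is, the deposited normalized counts relative to the mean total of the 6 libraries of a table, per 1000000, and differences are log2 fold changes of RPM + 1 with their standard errors from limma. This scale understates the change of genes near 0. The library totals lay between 33189802 and 37595659 normalized counts in the culture table and between 40323468 and 50687122 in the genotype table, and the read depth behind them is unknown. The labelled cell types were checked against marker lists. The 10 MuSC markers summed to 6047 to 8664 RPM in fresh MuSCs and to 807 to 901 RPM in myoblasts. The 8 genes of myocyte differentiation summed to 941 to 1208 RPM in MuSCs and to 8831, 14962 and 22883 RPM in myoblast libraries 04, 05 and 06, and the 12 mature myofiber genes to at most 825 RPM in MuSCs and to 10360, 14760 and 24235 RPM in the same order, so that the libraries labelled myoblast also held transcripts of differentiation and of the myofiber. The 8 fibro-adipogenic genes summed to 3101 to 3657 RPM in MuSCs and to 252 to 355 RPM in myoblasts. The 8 proliferation markers summed to 393 to 895 RPM in MuSCs and to 664 to 1369 RPM in myoblasts, and these ranges overlapped. Of these markers 2 passed, both higher in myoblasts. Endothelial and immune markers, of which only 2 of 6 and 3 of 6 genes were listed, summed to at most 16.3 and 6.63 RPM in these 6 libraries. In such bulk libraries a smaller share of cells and less RNA per cell cannot be told apart.

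Cullin and receptor genes were changed widely in culture. Of the 98 tested members, 49 passed the test at an adjusted p of at most 0.05, 29 higher and 20 lower in myoblasts. Among all 15345 tested genes 42.8% passed, 22.2% higher and 20.6% lower, a share close to that of the members. The groups did not overlap for 61 members, 33 higher and 28 lower, beside 55.2% of all tested genes. At an absolute log2 difference of at least 1 as well, 39 members passed, beside 31.8% of all tested genes. The largest increases were in Klhl genes of the sarcomere, and the decreases were spread over Cul1, Fbxo30, Fbxl5 and Klhl15. The median difference was 0.18 over the members and 0.04 over all tested genes on the log2 scale. By family it was -0.28 for the cullins, 0.33 for Fbxl, 0.99 for Fbxw, 0.07 for Fbxo and 0.25 for Klhl genes. The share that passed was 50% of the cullins, 38.9% of Fbxl, 44.4% of Fbxw, 48.5% of Fbxo and 60% of Klhl genes.

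**Figure D1:**
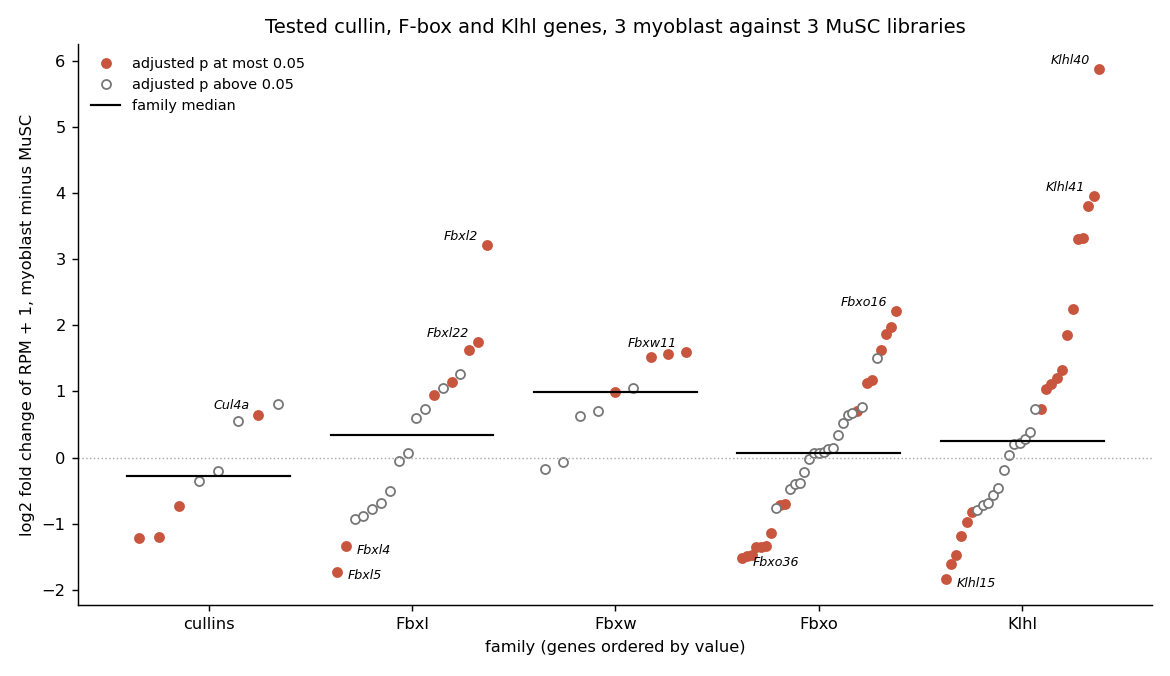
Log2 fold change of RPM + 1 (myoblast minus MuSC) for the 98 tested members, by family, each point a gene, filled where limma's adjusted p was 0.05 or less and the family median as a line. Filled points number 4 of 8 cullins, 7 of 18 Fbxl, 4 of 9 Fbxw, 16 of 33 Fbxo and 18 of 30 Klhl genes, and Klhl40 at 5.87 lies highest.

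Among the scaffolds, Cul1, which carries the F-box receptors, was lower in every myoblast library than in any MuSC library. Its level was 585, 581 and 590 RPM in MuSC libraries 04, 05 and 06 and 303, 243 and 226 RPM in the myoblast libraries of these numbers. The difference was -1.19 ± 0.17 on the log2 scale (SE, n = 3 libraries a group, limma adjusted p = 0.000741), and the lowest MuSC library stood well above the highest myoblast library.

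Cul4a, which works with the adaptor Ddb1, went the other way, from 185, 122 and 115 RPM to 237, 226 and 190 RPM (0.65 ± 0.22, limma adjusted p = 0.0431). Cul5, a partner of SOCS-box receptors, fell from 206, 183 and 247 RPM to 86.1, 148 and 158 RPM (-0.73 ± 0.26, limma adjusted p = 0.0464). Cul9, a large relative of Cul7, fell from 9.66, 13.6 and 9.45 RPM to 2.82, 5.39 and 4.32 RPM (-1.22 ± 0.34, limma adjusted p = 0.0177). The groups did not overlap for any of these genes. With each library scaled to its own total the cullin calls were 2 higher and 2 lower, in place of 1 and 3. Only for Cul1 did the call survive each left-out library. Cul4a was lost without MuSC library 05 or 06 or myoblast library 04, 05 or 06 (adjusted p 0.053 to 0.141), Cul5 without MuSC library 04, 05 or 06 or myoblast library 04 or 05 (0.0605 to 0.143) and also with each library scaled to its own total (0.101), and Cul9 without MuSC library 05 (0.0671) or myoblast library 06 (0.0508). The count of 4 cullins became 1 without MuSC library 05 and 2 without MuSC library 06 or myoblast library 04 or 05.

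The other scaffolds did not pass. Cul3, on which the Klhl proteins sit, was at 72.5, 47.6 and 69.6 RPM in MuSCs and 39.2, 44.0 and 66.6 RPM in myoblasts, and these ranges overlapped (-0.35, 95% interval -0.96 to 0.27, limma adjusted p = 0.326). Cul2 stood at 168 to 181 RPM in MuSCs and 127 to 189 RPM in myoblasts (-0.21, 95% interval -0.65 to 0.24). Cul4b was at 14.3, 19.1 and 22.1 RPM in MuSCs and 43.5, 34.4 and 23.4 RPM in myoblasts, with limma adjusted p = 0.0574, which became 0.0346 with each library scaled to its own total, 0.0351 with mitochondrial genes left out of that total, and 0.0364 without myoblast library 06. Cul4a and Cul4b are close paralogs whose reads may be split between them. Cul7 was at 10.6 to 26.0 RPM in MuSCs and 20.2 to 24.0 RPM in myoblasts (limma adjusted p = 0.238, and 0.0317 without MuSC library 04).

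Levels of different genes can be set side by side only per length, here as RPM per kb of merged exon. In fresh MuSCs Cul1 stood alone at 47.5 to 48.2 RPM per kb. Cul4a (17.9 to 28.8), Cul5 (18.4 to 24.8) and Cul2 (18.1 to 19.4) followed with overlapping ranges, Cul3 came next at 8.55 to 13.0, and Cul4b (2.54 to 3.93) and Cul7 (1.43 to 3.50) overlapped above Cul9 (0.701 to 1.01). In myoblasts Cul4a led at 29.5 to 36.8 RPM per kb, above Cul1 at 18.5 to 24.8, which overlapped Cul2 at 13.7 to 20.3. With the longest transcript as the length, Cul4a (50.7 to 63.4) and Cul1 (46.4 to 62.3) overlapped in myoblasts. The last places were held by Cul4b, Cul7 and Cul9 in both groups.

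**Figure D2:**
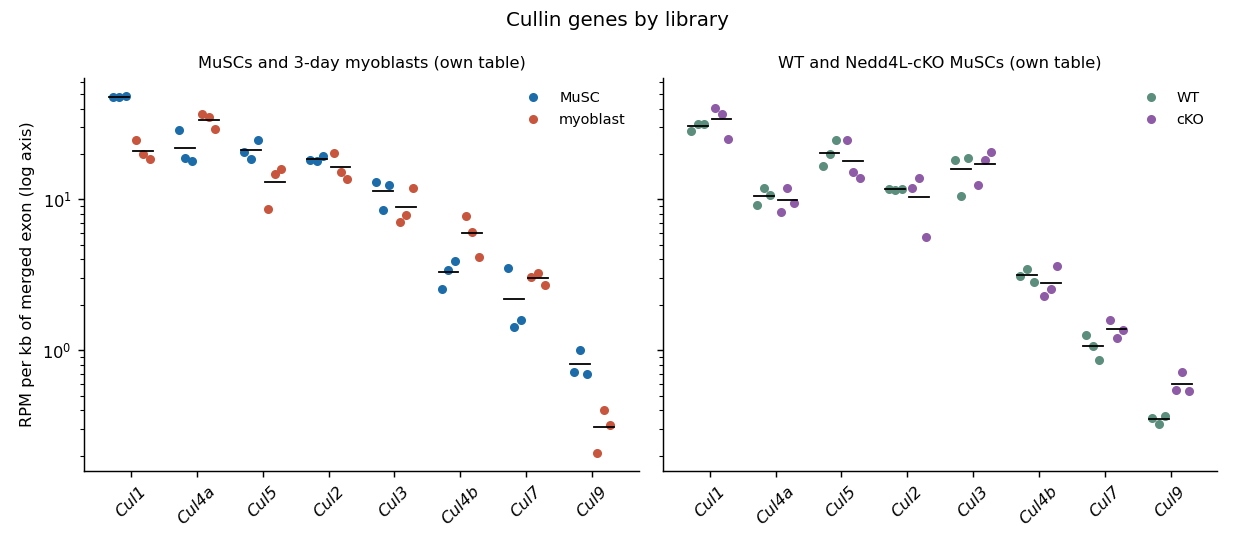
Level of each cullin in RPM per kb of merged exon on a log axis, a point for each library and a line at the mean of 3, for MuSCs and myoblasts on the left and WT and Nedd4L-cKO MuSCs on the right, which come from separately normalized tables. Cul1 leads in the fresh cells of both tables and Cul4a leads in myoblasts at a mean of 33.8 RPM per kb.

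The parts that the cullins share changed in both directions. Of 18 genes for adaptor, RING, E2 and Nedd8 enzymes, all tested, 5 rose, 4 fell and 9 did not pass. Among all tested genes 22.2% rose and 20.6% fell. Cand2, the muscle member of the receptor exchange factors, rose from 6.29, 7.36 and 10.7 RPM to 69.7, 72.8 and 74.6 RPM (3.04 ± 0.26, limma adjusted p = 4.01e-05), and its relative Cand1 rose from 75.3 to 110 RPM to 172 to 305 RPM (1.35 ± 0.25, limma adjusted p = 0.00274). Skp1, the link between Cul1 and the F-box, fell from 888 to 1048 RPM to 696 to 717 RPM (-0.46 ± 0.16, limma adjusted p = 0.0384). Nedd8 itself fell from 256 to 310 RPM to 186 to 230 RPM (-0.50 ± 0.18, limma adjusted p = 0.0476), whereas the RING genes Rbx1 and Rnf7 did not pass (limma adjusted p = 0.191 and 0.0592). Of the exonic length of Nedd8 20.9% lies over Gmpr2. Of 10 COP9 signalosome genes, Cops2, Cops4 and Gps1 fell, none rose and 7 did not pass. Gps1 shares 89.1% of its exonic length with other genes, so its value is uncertain, since the libraries do not mark strand.

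Adaptors and receptors of the other cullins were counted from a list of 17 genes, of which 5 rose and 4 fell, beside 22.2% and 20.6% of all tested genes. The Cul4 adaptor Ddb1 rose from 248, 165 and 132 RPM to 518, 626 and 549 RPM (1.67 ± 0.24, limma adjusted p = 0.000691), in the same direction as Cul4a. The Cul3 receptor Kctd10 rose from 13.7, 16.9 and 19.5 RPM to 174, 221 and 154 RPM (3.38 ± 0.23, limma adjusted p = 1.29e-05). The Cul3 receptor Spop fell from 613, 484 and 325 RPM to 192, 223 and 224 RPM (-1.10 ± 0.24, limma adjusted p = 0.00596), and the Cul5 receptor Socs2 fell from 432, 234 and 287 RPM to 116, 110 and 109 RPM (-1.46 ± 0.24, limma adjusted p = 0.00134). Kctd10 has 35.4% of its exonic length in common with Myo1h.

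F-box proteins with leucine-rich repeats (Fbxl) were called in 7 of 18 cases, 5 higher and 2 lower, beside 42.8% of all tested genes. Fbxl2, a membrane-anchored member, rose most, from 4.35, 3.81 and 1.59 RPM to 47.9, 27.5 and 36.6 RPM (3.21 ± 0.37, limma adjusted p = 0.000228). Of its exonic length 18.8% lies over Ubp1. It has a close paralog, Fbxl20, which was at 11.4 to 29.8 RPM in MuSCs and 18.0 to 38.9 RPM in myoblasts and did not pass. Fbxl22, known from the Z-disc of heart muscle, rose from 10.6, 7.75 and 11.4 RPM to 29.4, 29.0 and 51.0 RPM (1.74 ± 0.31, limma adjusted p = 0.00232). The lowest myoblast library exceeded the highest MuSC library for both Fbxl2 and Fbxl22.

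Fbxl12 (1.62 ± 0.35) and Fbxl6 (1.15 ± 0.27) also rose, at adjusted p = 0.00567 and 0.00862 in limma, from at most 4.78 and 18.0 RPM to at least 9.05 and 32.8 RPM, but 51.6% of the exonic length of Fbxl12 lies over Ubl5 and Fbxl12os and 28.1% of that of Fbxl6 over Slc52a2. Fbxl14, a receptor for Snail, was called at 0.95 ± 0.33 (limma adjusted p = 0.0454) on levels of at most 6.02 RPM, with 42.0% of its exonic length over Wnt5b, and the call was lost with a pseudocount of 0.1 RPM (0.0582) and without any single library (0.0701 to 0.122).

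The Fbxl genes that fell were Fbxl5 and Fbxl4. Fbxl5, whose protein binds iron and marks the iron regulator IRP2, fell from 239, 186 and 158 RPM to 71.9, 58.4 and 43.9 RPM (-1.73 ± 0.24, limma adjusted p = 0.00063). Fbxl4, a mitochondrial outer membrane protein that restrains mitophagy, fell from 95.8, 45.5 and 65.9 RPM to 37.7, 22.1 and 19.7 RPM (-1.34 ± 0.34, limma adjusted p = 0.0121). The groups stood apart for both genes. In RPM per kb, Fbxl4 and Fbxl5 led the Fbxl genes in fresh MuSCs, with means of 12.9 ± 4.71 and 10.8 ± 2.27 (SD, n = 3), and Fbxl6 led in myoblasts at 15.5 ± 1.94.

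Fbxl21 was below 4 RPM in every library and did not pass (0.07 ± 0.47, limma adjusted p = 0.914).

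Among F-box proteins with WD40 repeats (Fbxw), 4 of 9 tested genes rose and none fell, beside 22.2% and 20.6% of all tested genes. Fbxw11, also called beta-TrCP2 and a receptor for beta-catenin and I-kappa-B, rose from 31.2, 36.1 and 37.1 RPM to 101, 135 and 89.0 RPM (1.59 ± 0.22, limma adjusted p = 0.00058). Fbxw5 rose from 31.0, 38.7 and 29.4 RPM to 97.2, 94.3 and 95.1 RPM (1.52 ± 0.20, limma adjusted p = 0.000439), and Fbxw2 from 36.2, 44.1 and 38.8 RPM to 79.1, 84.8 and 74.9 RPM (0.99 ± 0.19, limma adjusted p = 0.00366). All myoblast libraries exceeded all MuSC libraries for these genes.

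Fbxw8, the F-box partner of Cul7, rose from 7.22, 10.4 and 15.5 RPM to 18.2, 56.9 and 35.3 RPM (1.57 ± 0.44, limma adjusted p = 0.0182), and was lost without MuSC library 04 (0.0564) or 05 (0.0522) or myoblast library 05 (0.0705). Of its exonic length 24.5% overlaps a lncRNA. Fbxw7, which marks cyclin E, Myc and Notch, spread widely in culture. It was at 12.7, 10.3 and 17.0 RPM in MuSCs and 10.9, 33.4 and 59.6 RPM in myoblasts (1.05 ± 0.53, limma adjusted p = 0.143), with myoblast library 04 inside the MuSC range. Without that library the adjusted p was 0.00336 at a difference of 1.70, and without myoblast library 06 it was 0.439 at 0.52.

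The remaining F-box genes (Fbxo) were called in 16 of 33 cases, 7 higher and 9 lower, beside 42.8% of all tested genes. The atrophy receptors did not move together. Fbxo30 stood in RPM per kb above every other F-box gene in fresh MuSCs, with a mean of 78.8 ± 48.8 (SD, n = 3). It fell from 908, 330 and 351 RPM in MuSCs to 170, 161 and 174 RPM in myoblasts (-1.48 ± 0.35, limma adjusted p = 0.00915). MuSC library 04 lay far above the rest, and without it the difference was -1.01 and still passed. Over all left-out libraries the adjusted p reached at most 0.0279.

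Fbxo32 went the opposite way without passing. It was at 28.9, 6.23 and 4.15 RPM in MuSCs and 21.8, 39.9 and 26.7 RPM in myoblasts (1.51 ± 0.60, limma adjusted p = 0.0694), and MuSC library 04 was again the high one. Without that library the adjusted p was 0.00235 at a difference of 2.28, and without MuSC library 06 it was 0.215 at 1.01. Fbxo21 rose from 16.4, 5.53 and 8.85 RPM to 45.9, 37.8 and 29.3 RPM (1.87 ± 0.38, limma adjusted p = 0.00444), with no overlap between the groups. In MuSC library 04 Fbxo30, Fbxo32 and Fbxo21 were all at their highest among the fresh cells.

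**Figure D3:**
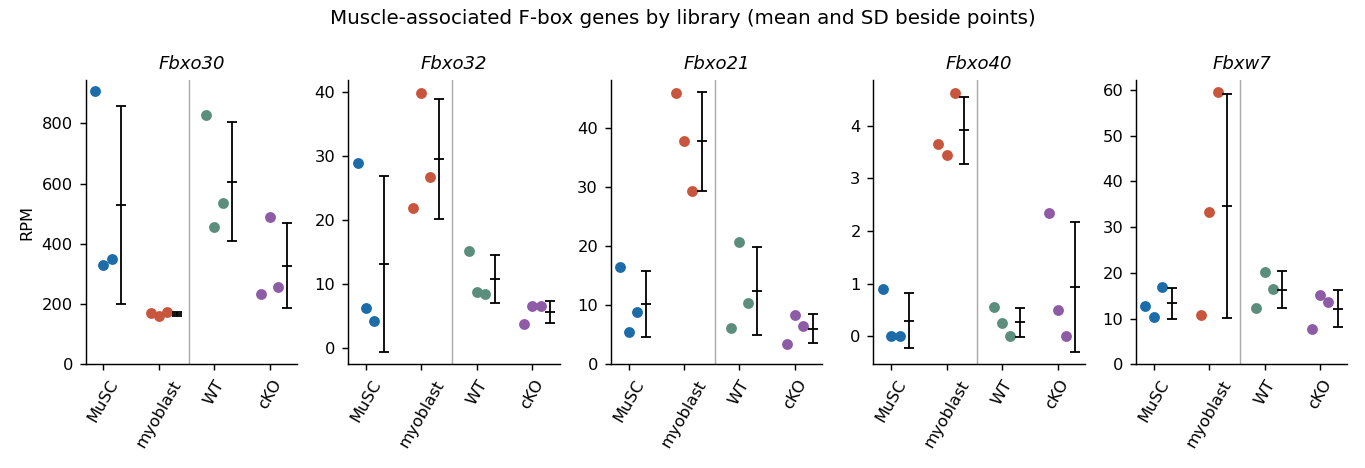
RPM of 5 F-box genes known from muscle in each library of the 4 groups, each point a library, with the mean and SD of 3 beside the points and a separate y axis for each gene. The gray line parts the culture table from the genotype table, which were normalized separately. Fbxo30 is at 161 to 174 RPM in the 3 myoblast libraries and at 908 RPM in 1 MuSC library.

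Fbxo40, a receptor largely restricted to muscle that marks Irs1, was at 0.896, 0 and 0 RPM in MuSCs and 3.65, 3.45 and 4.63 RPM in myoblasts (1.98 ± 0.32, limma adjusted p = 0.00131). The gene was thus low in all 6 libraries, and the myoblasts were above the fresh cells throughout. Fbxo16 was likewise listed at or next to 0 in MuSCs (0.0127, 0 and 0 RPM) and was at 6.68, 2.29 and 2.97 RPM in myoblasts (2.21 ± 0.33, limma adjusted p = 0.000854). Both Fbxo40 and Fbxo16 met the filter for testing only with the myoblast libraries, where they are high. Their calls are therefore not independent of that filter. Fbxo17 rose from 22.7, 29.3 and 25.2 RPM to 93.4, 70.5 and 80.1 RPM (1.62 ± 0.22, limma adjusted p = 0.000476), and Fbxo46 from 6.25 to 6.86 RPM to 13.0 to 21.1 RPM (1.13 ± 0.30, limma adjusted p = 0.0155). Of the exonic length of Fbxo46 24.9% lies over Qpctl.

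The largest decreases after Fbxo36 (-1.53 ± 0.31, from 14.9 to 23.7 RPM to 4.91 to 6.31 RPM) and Fbxo30 were those of Fbxo7, Fbxo33 and Fbxo3. Fbxo7, which works with Parkin in mitophagy, fell from 48.2, 44.6 and 34.0 RPM to 25.7, 8.68 and 13.1 RPM (-1.48 ± 0.38, limma adjusted p = 0.0125), and 25.2% of its exonic length lies over other genes. Fbxo3 fell from 220, 180 and 190 RPM to 101, 65.6 and 66.9 RPM (-1.35 ± 0.22, limma adjusted p = 0.0014). Fbxo33 fell from 4.75 to 14.5 RPM to 1.89 to 4.31 RPM (-1.35 ± 0.44, limma adjusted p = 0.0345), which was lost without MuSC library 04 (0.0975) or 06 (0.0772) or myoblast library 04 (0.0691) or 05 (0.102). The other Fbxo calls were Fbxo4 (-1.34), Fbxo11 (-1.13), Fbxo9 (-0.71) and Fbxo25 (-0.70), which fell, and Fbxo2 (0.70), which rose from at most 0.162 RPM to 0.495 to 1.41 RPM. Fbxo2 also met the filter for testing only with the myoblast libraries, and 37.9% of its exonic length lies over other genes. Fbxo25 did not pass without any single library (0.0683 to 0.126), Fbxo9 without MuSC library 04 or 06 or myoblast library 05 or 06 (0.0516 to 0.0733), and Fbxo2 without any MuSC library (0.0621 to 0.103). The 17 Fbxo genes that did not pass had differences from -0.76 to 1.51.

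F-box genes that carry other names were read from a list of 8, of which 3 rose and none fell, beside 22.2% and 20.6% of all tested genes. Ccnf (cyclin F) rose from 6.14 to 11.3 RPM to 24.8 to 51.0 RPM (2.12 ± 0.36, limma adjusted p = 0.00168), and the chromatin regulator Kdm2b from 9.98 to 18.5 RPM to 28.2 to 42.3 RPM (1.29 ± 0.31, limma adjusted p = 0.00907). Lmo7 rose from 3.75, 2.81 and 1.84 RPM to 16.7, 89.1 and 142 RPM (4.04 ± 0.68, limma adjusted p = 0.00165). Skp2, the receptor for the Cdk inhibitor p27, was at 37.7, 56.9 and 50.6 RPM in MuSCs and 83.6, 41.3 and 27.9 RPM in myoblasts, so that the groups overlapped (-0.05 ± 0.38, limma adjusted p = 0.921).

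Klhl genes were called in 18 of 30 cases, 12 higher and 6 lower, beside 42.8% of all tested genes. They held the largest changes of all members. Klhl40, which stabilizes nebulin in the thin filament and lies at chr9:121606673-121615109 (plus strand, GRCm39), was nearly off in fresh MuSCs at 0.56, 2.77 and 0.594 RPM and reached 74.4, 123 and 199 RPM in myoblasts (5.87 ± 0.46, limma adjusted p = 2.62e-05). Klhl41, its relative in the sarcomere, rose from 10.8, 28.5 and 7.75 RPM to 114, 261 and 377 RPM (3.95 ± 0.52, limma adjusted p = 0.000453). Klhl31, which is needed for normal sarcomere structure, rose from 12.2, 23.3 and 21.2 RPM to 177, 268 and 398 RPM (3.80 ± 0.34, limma adjusted p = 5.2e-05). Every myoblast library exceeded every MuSC library for each of them. Of the exonic length of Klhl40 27.1% lies over other genes, and of that of Klhl21 20.5%.

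Klhl30 rose from 11.1, 2.00 and 4.70 RPM to 24.4, 71.0 and 109 RPM (3.31 ± 0.62, limma adjusted p = 0.00291). For Klhl40, Klhl41, Klhl31 and Klhl30 alike myoblast library 04 was the lowest and library 06 the highest. The mature myofiber markers of the same libraries stood in the same order (10360, 14760 and 24235 RPM), as did the markers of myocyte differentiation, and their part in these increases was not tested. Without myoblast library 06 the differences of these 4 genes still passed, and over all left-out libraries they stayed between 5.52 and 6.29 for Klhl40, 3.58 and 4.46 for Klhl41, 3.51 and 4.09 for Klhl31, and 2.82 and 3.91 for Klhl30. Klhl34 was not tested, with 0 RPM in all 3 MuSC libraries and 0.26, 4.80 and 6.27 RPM in the myoblasts, and its whole exonic length lies over Cnksr2.

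**Figure D4:**
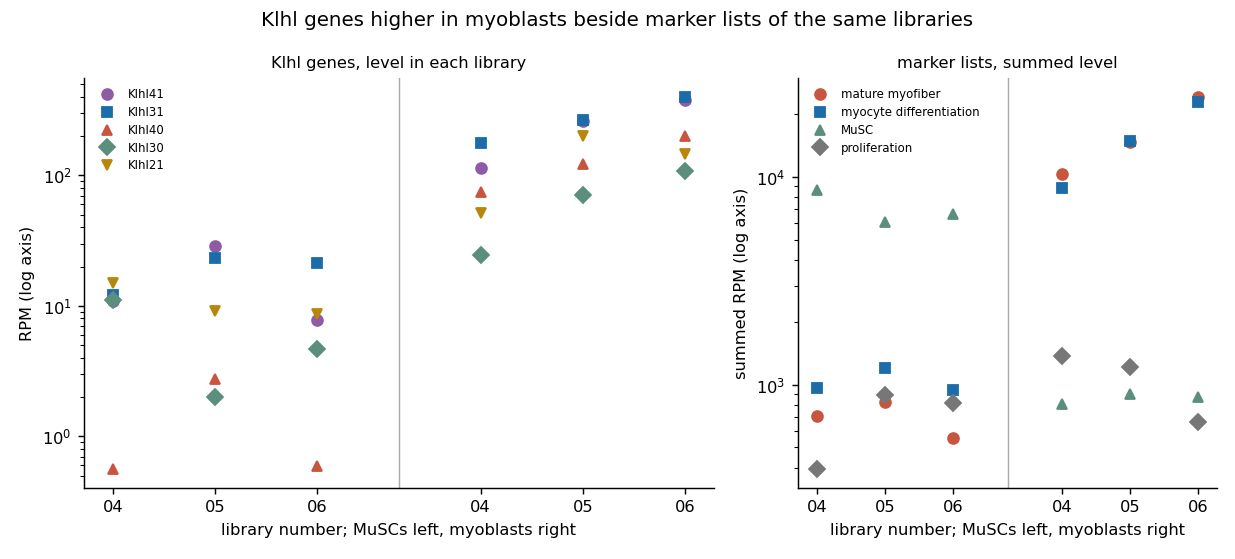
Level in RPM (log axis) of 5 Klhl genes in each library, numbered 04, 05 and 06 in both groups, MuSCs on the left of the gray line and myoblasts on the right, beside the summed RPM of 4 marker lists in the same libraries. Klhl40 rises from at most 2.77 RPM to at least 74.4 RPM, and the myofiber markers are highest in myoblast library 06, as are Klhl40, Klhl41, Klhl31 and Klhl30.

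Promoter sequences are shown for the muscle genes Klhl40, Klhl41 and Fbxo40, which share the increase in culture, to let their motifs be read beside the values. They are the 250 bases before an annotated start, 5′ to 3′ on the strand of the gene, from RefSeq on GRCm38.p6. Capitals mark the E-boxes CAGCTG and CAGGTG (the latter on either strand, where it reads CACCTG on the other) and a MEF2-like pattern, CTA and TAG with any 4 bases between them, letters that myogenic bHLH and MEF2 factors are known to bind.
Klhl40, chr9:121777357-121777606, plus strand: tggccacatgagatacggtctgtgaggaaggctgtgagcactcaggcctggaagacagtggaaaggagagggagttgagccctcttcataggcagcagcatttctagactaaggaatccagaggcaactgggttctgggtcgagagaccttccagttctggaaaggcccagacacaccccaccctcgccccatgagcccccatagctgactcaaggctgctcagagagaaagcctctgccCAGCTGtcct
Klhl41, chr2:69669870-69670119, plus strand: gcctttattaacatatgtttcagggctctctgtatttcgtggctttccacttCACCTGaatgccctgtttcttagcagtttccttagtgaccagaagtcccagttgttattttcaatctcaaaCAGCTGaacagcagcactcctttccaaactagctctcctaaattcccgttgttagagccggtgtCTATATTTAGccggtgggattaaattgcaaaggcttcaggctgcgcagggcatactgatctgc
Fbxo40, chr16:36990468-36990717, minus strand: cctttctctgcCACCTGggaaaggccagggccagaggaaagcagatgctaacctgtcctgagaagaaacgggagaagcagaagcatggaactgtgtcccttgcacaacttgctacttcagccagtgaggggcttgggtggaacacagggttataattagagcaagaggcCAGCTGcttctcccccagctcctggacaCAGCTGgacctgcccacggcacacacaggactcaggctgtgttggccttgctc

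In these windows the E-box of Klhl40 began 10 bases before the start. Klhl41 had CAGCTG at 127, CAGGTG at 198 and the MEF2-like pattern at 63 bases, and Fbxo40 had CAGCTG at 81 and 53 and CAGGTG at 239 bases. Fbxo40 has another annotated start, whose window (chr16:36979137-36979386) held CAGCTG at 89 bases and none of the other patterns. The window of Klhl31, whose increase was nearly as large as that of Klhl41, held none of the 3 patterns, and those of Klhl21 and Klhl6 held CAGCTG at 165 and 51 bases. Over the genes with a window, CAGCTG was present in 7 of 25 members that rose (28.0%), in 3 of 17 that fell (17.6%) and in 14.7% of all 27025 genes. The 7 include Fbxo40 and Klhl6, which met the filter for testing only with the myoblast libraries. CAGGTG was present in 16.0%, 17.6% and 19.4% of the same sets, the MEF2-like pattern in 4.0%, 5.88% and 3.7%, and the FoxO-like GTAAACA, also searched on both strands, in 0 of 25, 0 of 17 and 3.54%. No 2 of these patterns contain each other. A window was found for 25 of the 29 members that rose and 17 of the 20 that fell. For the 49 tested members that did not pass it was found for 36, and over the whole family for 80 of 102, less than the 80% coverage set for a share, so that none is given for these sets.

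Klhl21 and Klhl22, which act in mitosis, also rose. Klhl21, which with Cul3 moves Aurora B at anaphase, rose from 14.9, 9.11 and 8.69 RPM to 51.7, 201 and 145 RPM (3.32 ± 0.47, limma adjusted p = 0.000618). Klhl22, a receptor for Plk1, rose from 28.7, 33.9 and 38.3 RPM to 94.9, 86.3 and 74.9 RPM (1.32 ± 0.21, limma adjusted p = 0.00127). The levels of both lay above the MuSC range in all myoblast libraries. The proliferation markers of myoblast libraries 04, 05 and 06 summed to 1369, 1214 and 664 RPM, an order that Klhl22 shared and Klhl21 did not. The part of proliferation in these increases was not tested.

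Of their partners in mitosis, Klhl13 fell and Klhl9 did not pass. Klhl13 fell from 203, 310 and 281 RPM to 62.9, 131 and 182 RPM (-1.18 ± 0.36, limma adjusted p = 0.0276), and was lost without MuSC library 05 (0.0932) or 06 (0.0796), while without myoblast library 04 the difference shrank to -0.75. Klhl9 was at 116 to 159 RPM in MuSCs and 92.9 to 107 RPM in myoblasts (-0.46 ± 0.19, limma adjusted p = 0.0821). The 2 are close paralogs, and estimated counts may be shared between them. In RPM per kb they were the most abundant Klhl genes of fresh MuSCs, at 41.3 ± 8.66 and 33.4 ± 5.25 (SD, n = 3), whereas Klhl41 at 80.9 ± 42.6 and Klhl31 at 39.1 ± 15.5 led in myoblasts.

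Klhl25, a receptor for the translation inhibitor 4E-BP1, rose from 1.80, 5.40 and 4.68 RPM to 23.7, 25.6 and 15.4 RPM (2.24 ± 0.40, limma adjusted p = 0.00218). Klhl6, best known from lymphoid cells, was below 0.5 RPM in MuSCs and at 2.23, 4.48 and 3.28 RPM in myoblasts (1.86 ± 0.28, limma adjusted p = 0.000832). It met the filter for testing only with the myoblast libraries, where it is high, so its call is not independent of that filter. Immune markers summed to at most 2.54 RPM in those myoblast libraries, beside 2.57 to 6.63 RPM in the fresh cells. Only 3 of the 6 immune genes were listed there, and which cells the Klhl6 values came from was not tested.

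Among the decreases, Klhl15, a receptor for a regulatory subunit of the phosphatase PP2A, fell from 104, 56.1 and 71.9 RPM to 30.3, 16.6 and 16.3 RPM (-1.84 ± 0.32, limma adjusted p = 0.00206). Klhl36 fell from 9.28, 8.66 and 6.74 RPM to 1.30, 3.11 and 2.83 RPM (-1.47 ± 0.35, limma adjusted p = 0.00904). Klhl3, the receptor for WNK kinases, fell from 17.3, 7.09 and 8.42 RPM to 1.16, 3.36 and 4.23 RPM (-1.61 ± 0.46, limma adjusted p = 0.0203), a call that was lost without MuSC library 04 (0.0611). Klhl33 was at 5.73 to 7.72 RPM in MuSCs and 2.07 to 4.46 RPM in myoblasts (-0.98 ± 0.34, limma adjusted p = 0.045). It did not pass with each library scaled to its own total (0.0681), with a pseudocount of 0.1 RPM (0.0548) or without MuSC library 04, 05 or 06 or myoblast library 04 or 06 (0.0684 to 0.179). The remaining Klhl calls were Klhl18 (1.21), Klhl11 (1.11), Klhl12 (1.04) and Klhl20 (0.73), which rose, and Klhl5 (-0.82), which fell. Klhl12, a receptor for the COPII coat protein Sec31, went from 28.9 to 33.4 RPM to 57.2 to 68.4 RPM. Klhl5 did not pass without any single library (0.063 to 0.138), Klhl20 without any but myoblast library 04 (0.0643 to 0.183), Klhl18 without MuSC library 05 or myoblast library 05 or 06 (0.0705 to 0.108), and Klhl11 without myoblast library 06 (0.0632). The 12 Klhl genes that did not pass had differences from -0.79 to 0.73.

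Of the kelch-BTB genes with other names, 4 of 13 rose and 2 fell, beside 22.2% and 20.6% of all tested genes. Keap1, which marks the stress regulator Nrf2, rose from 10.02, 12.6 and 11.4 RPM to 66.1, 73.6 and 58.8 RPM (2.45 ± 0.23, limma adjusted p = 6.99e-05), and Enc1 from 1.13 to 3.31 RPM to 12.5 to 19.6 RPM (2.66 ± 0.38, limma adjusted p = 0.00068). Kbtbd3 fell from 16.6 to 20.6 RPM to 3.46 to 8.89 RPM (-1.38 ± 0.37, limma adjusted p = 0.015). The fitted values of the 13 genes ran from -2.43 to 2.68. Keap1 has 25.8% of its exonic length over antisense lncRNAs.

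Receptors tied to the cell cycle and the clock form a list of 10 members, of which Fbxo5, Fbxw11, Klhl21 and Klhl22 rose, Klhl13 fell and 5 did not pass. Among all tested genes 42.8% passed. Fbxo5 (Emi1), the inhibitor of the anaphase-promoting complex, was at 10.9, 16.4 and 26.9 RPM in MuSCs and 51.9, 49.1 and 23.7 RPM in myoblasts (1.17 ± 0.40, limma adjusted p = 0.043). Its groups overlapped, since myoblast library 06 lay below the highest MuSC library. Myoblast library 06 also had the lowest sum of proliferation markers among the myoblasts (664 against 1369 and 1214 RPM). In MuSC libraries 04, 05 and 06 the same markers summed to 393, 895 and 813 RPM. The call of Fbxo5 was lost without MuSC library 04 or 05 or myoblast library 04 or 05 (0.0913 to 0.133). Fbxo43 (Emi2) stayed below 0.5 RPM in all 6 libraries.

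Between the genotypes, Nedd4l was measured in every library to check the labels. It was at 70.2, 96.4 and 66.7 RPM in WT and 30.2, 36.3 and 22.5 RPM in Nedd4L-cKO MuSCs (-1.37 ± 0.28, limma adjusted p = 0.0467), so the groups did not overlap. The value covers the whole gene and not the deleted exon alone.

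No cullin, F-box or Klhl gene passed in this comparison, where limma's adjusted p had to be 0.05 or less, the log2 difference 1 or more in size, and the mean level 5 RPM or more. Among all 15304 tested genes 0.653% passed, and 0.784% at the adjusted p alone, at which no member passed either. At an unadjusted p below 0.05 in limma there were 8 of 93 members, 3 higher and 5 lower, beside 14.6% of all tested genes (7.51% higher and 7.13% lower). The groups did not overlap for 12 members, 4 higher and 8 lower in Nedd4L-cKO, beside 19.3% of all tested genes. A fitted value above 0 was found for 38 of the 93 members, beside 50.1% of all tested genes. The median difference was -0.13 over the members and 0.00 over all genes. By family it was 0.00 for the cullins, -0.10 for Fbxl, -0.38 for Fbxw, -0.14 for Fbxo and -0.02 for Klhl genes, and 9 of the 10 Fbxw genes had a fitted value below 0.

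No cullin passed. Cul1 was at 348, 386 and 388 RPM in WT and 492, 453 and 308 RPM in Nedd4L-cKO (0.13, 95% interval -0.42 to 0.68), and Cul3 at 102, 58.9 and 105 RPM and 68.9, 101 and 115 RPM (0.12, 95% interval -0.54 to 0.78). Cul4a lay at 59.1 to 76.5 RPM and 53.3 to 76.5 RPM (-0.11, 95% interval -0.66 to 0.44). Cul9 was the only cullin whose groups did not overlap, at 4.79, 4.39 and 4.94 RPM in WT and 7.33, 9.64 and 7.25 RPM in Nedd4L-cKO (0.66 ± 0.33, limma adjusted p = 0.38). In RPM per kb, Cul1 led in both genotypes (means of 30.6 and 34.2), and Cul5, Cul3, Cul2 and Cul4a followed in Nedd4L-cKO, each overlapping the next.

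**Figure D5:**
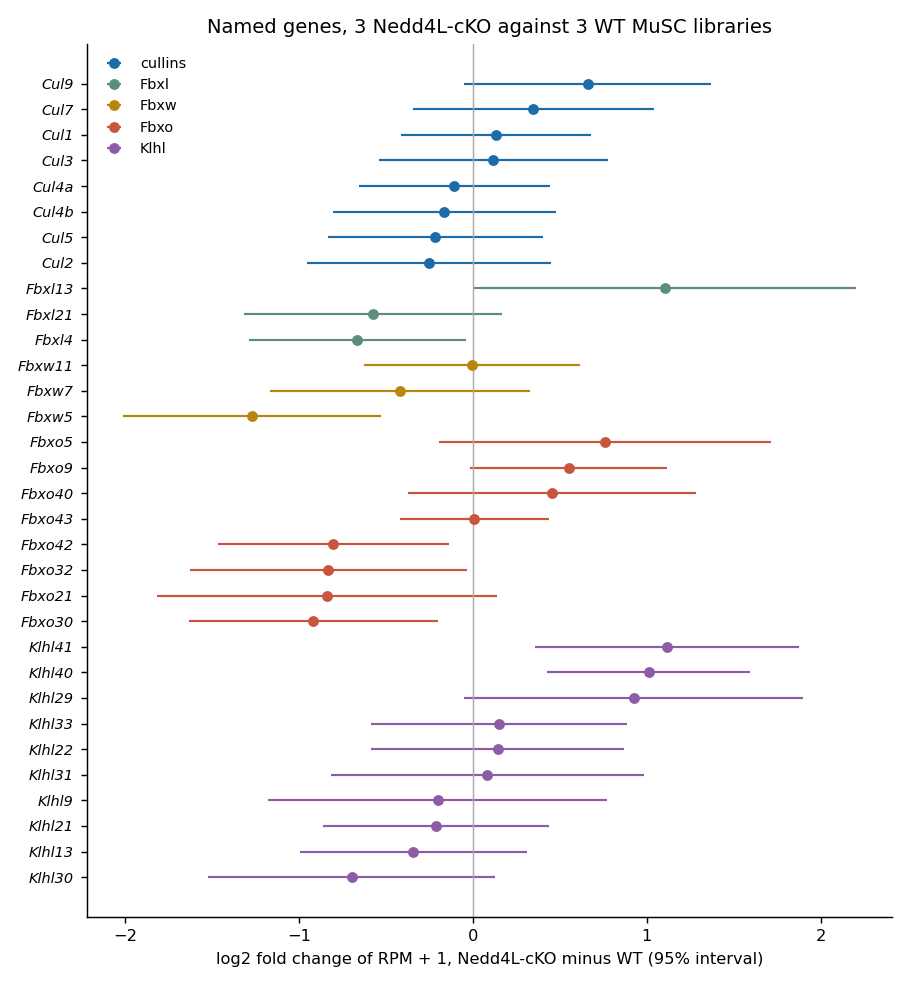
Log2 fold change of RPM + 1 (Nedd4L-cKO minus WT) with its 95% interval for members named by the rule, 3 libraries a group, colored by family. No member passed the thresholds, and the values run from -1.27 for Fbxw5 to 1.11 for Klhl41.

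Of the members lower in Nedd4L-cKO, Fbxw5 had the smallest p. It was at 27.8, 18.5 and 17.5 RPM in WT and 5.72, 7.84 and 11.4 RPM in Nedd4L-cKO (-1.27 ± 0.34, limma adjusted p = 0.119). Fbxo30 was at 829, 456 and 534 RPM and 235, 491 and 258 RPM, with Nedd4L-cKO library 02 inside the WT range (-0.92 ± 0.33, limma adjusted p = 0.234). Fbxo32 was at 15.1, 8.74 and 8.45 RPM and 3.65, 6.53 and 6.496 RPM, with no overlap (-0.83 ± 0.37, limma adjusted p = 0.325).

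Fbxo42 (15.1 to 25.7 RPM against 10.47 to 12.7 RPM) and Fbxl4 (48.6 to 61.7 RPM against 24.6 to 46.2 RPM) also had groups that stood apart, at limma adjusted p = 0.265 and 0.314. The atrophy receptor Fbxo21 was at 6.16, 20.6 and 10.3 RPM in WT and 3.43, 8.32 and 6.42 RPM in Nedd4L-cKO, with overlap (-0.84 ± 0.45, limma adjusted p = 0.416). Leaving out WT library 03 brought a single member past the thresholds, Fbxl20 at -1.67 (limma adjusted p = 0.0454), whose levels were 30.0, 54.2 and 8.31 RPM in WT and 11.8, 10.98 and 13.2 RPM in Nedd4L-cKO and which was named after its values were seen.

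Of the members higher in Nedd4L-cKO, Klhl40 and Klhl41 had the smallest p. Klhl41 was at 46.6, 17.2 and 22.5 RPM in WT and 55.9, 49.98 and 70.1 RPM in Nedd4L-cKO (1.11 ± 0.35, limma adjusted p = 0.177). Klhl40 was at 0.342, 0.113 and 0.0706 RPM in WT and 0.891, 1.12 and 2.26 RPM in Nedd4L-cKO (1.01 ± 0.27, limma adjusted p = 0.114), below the 5 RPM that the thresholds ask for. For both, all Nedd4L-cKO libraries exceeded all WT libraries. Klhl40 met the filter for testing only with the Nedd4L-cKO libraries, where it is higher. Its p and the separation of its groups are therefore not independent of that filter. Klhl31, by contrast, was at 9.20, 15.8 and 8.21 RPM in WT and 5.94, 13.3 and 17.8 RPM in Nedd4L-cKO, with overlap and an adjusted p of 0.946 in limma.

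Beside these values stood differences in marker lists. The 8 proliferation markers summed to 78.7 to 254 RPM in WT and 302 to 449 RPM in Nedd4L-cKO, and the 12 mature myofiber genes to 408 to 647 RPM and 665 to 832 RPM. The 8 genes of myocyte differentiation summed to 192 to 971 RPM in WT and 671 to 1403 RPM in Nedd4L-cKO, with all 8 fitted values above 0. In the latter list Actc1 rose (2.39, limma adjusted p = 0.0467), and the only myofiber gene that passed, Actn3, fell (-1.47, limma adjusted p = 0.0327). Fitted values were above 0 for 11 of the 12 myofiber genes and for all 8 proliferation markers, of which 1 passed (2.20). Mitochondrial genes took 2.83% to 4.04% of the normalized counts in WT and 5.595% to 6.21% in Nedd4L-cKO. Immune markers, of which 4 of 6 genes were listed, summed to 38.5 RPM in WT library 03 and to at most 9.57 RPM in the other 5 libraries. The part of any of these in the values of Klhl41 and Klhl40 was not tested.

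Fbxl13 (0.0518 to 3.76 RPM against 3.00 to 5.22 RPM), Fbxo9 (26.6 to 32.2 RPM against 35.5 to 51.3 RPM) and Klhl29 (1.69 to 5.37 RPM against 3.52 to 9.39 RPM) completed the members with the smallest p on the higher side, at limma adjusted p = 0.341, 0.356 and 0.368. Fbxl13 likewise met the filter for testing only with the Nedd4L-cKO libraries, and 28.2% of its exonic length lies over other genes. In the lists of shared parts, COP9 subunits, other adaptors, F-box genes with other names and kelch-BTB genes with other names, none of 18, 10, 17, 8 and 13 tested genes passed. The most different of them in absolute terms were Ube2m, an E2 for Nedd8 (10.7, 6.92 and 4.69 RPM against 1.54, 1.48 and 6.43 RPM, limma adjusted p = 0.298), and Kbtbd11 (6.11, 9.001 and 7.11 RPM against 18.7, 14.7 and 19.1 RPM, limma adjusted p = 0.12). Of the exonic length of Kbtbd11 24.8% lies over another gene.

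Members that changed in culture were also read in the genotype comparison, which used other libraries. Of the 26 members higher in myoblasts and tested in both, 12 had a fitted value above 0 in Nedd4L-cKO (46.2%), beside 46.0% of 2878 such genes overall. Of the 20 lower in myoblasts, 8 had a value above 0 (40.0%), beside 49.9% of 3148 genes. The median genotype difference was -0.06 for the former members and -0.15 for the latter, beside -0.05 and -0.0036 for all such genes.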

How the data were processed

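RNA was sequenced from 12 libraries of 1000 cells each, 3 in each of 4 groups taken from the GEO labels. Per the study's methods, the authors sequenced single-end, pseudoaligned with kallisto 0.46.1 against GENCODE mouse transcripts, summed to genes with tximport and normalized with DESeq2, separately for the 2 tables. The deposited values are the signal used here, gene counts divided by the authors' size factors. Their columns of fold changes and p-values were not used, nor were 18 further columns of per-sample values.

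Values were scaled to RPM with 1 mean library total for each table. Genes that reached 10 normalized counts in 3 or more of the 6 libraries were tested with limma 3.58.1 (R 4.3.3, lmFit and eBayes with trend and robust moderation) on log2(RPM + 1), group alone as the term, with Benjamini-Hochberg adjustment over all tested genes. limma was used because the values are not raw counts. The script was tested on simulated data with 100 genes changed at each fold size. For the culture comparison, run on 15756 genes, it recovered 53% at an absolute log2 change of 1.5 and 79% at 3, and for the genotype comparison, run on 15660 genes, 53% and 83%. The changed genes were drawn from those with high counts only, with the spread of the reference group. In the real culture comparison 42.8% of genes passed, far more than were changed here. These shares therefore do not describe recovery in that comparison or for genes near 0.

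Same-numbered libraries of different groups were not treated as pairs. The MuSC and myoblast libraries also share tags in their sample descriptions, but no source used here ties a number or tag to an animal. Python 3.11.15 with pandas 2.3.3 and matplotlib 3.10.9 was used for tables and figures. Gene positions and exonic lengths came from a GRCm39 annotation (GENCODE M39), which is not the release the authors used, and promoters from RefSeq on GRCm38.p6. The named genes were all cullins, lists of muscle, cell cycle and clock members, the 5 largest increases and decreases with groups that did not overlap in each receptor family, and the 5 smallest p in each direction between the genotypes. A single gene that the rule names is not reported here. The members, lists, tests and motifs were chosen with earlier results of these data known. Alternatives were another scaling, pseudocount, filter, moderation, call rule or exonic length, the replicate block, and leaving out each library.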

Additional observations from a re-analysis of the deposited data

How the results depend on the processing

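Depth is unknown, so levels near 0 carry no counting interval. P-values set the difference between groups against the spread of these libraries, which limma moderates over all tested genes. Same-numbered MuSC and myoblast libraries did not deviate together (correlations -0.0314, -0.00502 and 0.018), nor did every library correlate best with its own number. With 3 libraries a group, these correlations cannot settle whether the numbers mark pairs. With the number as a replicate block, 45 members passed in culture, 42 of them among the 49 without it. Fbxl14, Fbxo25, Fbxo5, Fbxo9, Klhl20, Klhl33 and Klhl5 were lost and Fbxl16 and Fbxo27 were among those gained (adjusted p 0.014 and 0.0447), and no member passed between the genotypes, where the numbers did not deviate together either (correlations 0.0192, -0.0232 and -0.181). Left-out libraries gave 37 to 44 members in culture, 20 to 26 F-box genes, 13 to 16 Klhl genes, 1 to 4 cullins, and 0 to 1 members between the genotypes. Without trend and robust moderation 2 cullins passed. By the longest transcript in place of merged exons, 6 cullins in MuSCs, 5 in WT and 6 in Nedd4L-cKO kept their place in the order, as did all 8 in myoblasts. The causes were not tested. With each library scaled to its own total, the median of all genes in culture moved from 0.039 to 0.141, and 32 members were higher and 16 lower, in place of 29 and 20.

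Fitted values near 0 changed sign. In culture Fbxo43 became 0.0146 scaled to own totals and 0.0145 without mitochondrial genes. Between the genotypes, own totals gave -0.0111 for Cul3, -0.0068 for Fbxo43 and -0.0318 for Klhl31, and a pseudocount of 0.1 RPM gave -0.0139 for Fbxo43. Over left-out libraries in culture, Fbxl21 ranged from -0.4256 to 0.4536 and Fbxo43 from -0.0898 to 0.0815. Between the genotypes the ranges were -0.5018 to 0.1355 for Cul2, -0.1503 to 0.3317 for Cul3, -0.2471 to 0.0089 for Cul4a, -0.0301 to 0.8388 for Fbxo40, -0.0576 to 0.0881 for Fbxo43, -0.1927 to 0.1583 for Fbxw11, -0.2188 to 0.3647 for Klhl22, -0.2237 to 0.4951 for Klhl31 and -0.6938 to 0.3989 for Klhl9.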
